A study of Mus musculus with 401 samples.

Results

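Oocyte-cumulus complexes of calorie-restricted (CR) mice gave 2 kinds of library each, 1 from the oocyte alone and 1 from its cumulus cells together. Every library with the CR label was used, which gave 27 oocyte and 25 cumulus libraries, 52 of the 401 libraries of the series, and 25 complexes with a library of both cell types. The mice were B6D2F1 (C57BL/6 x DBA/2) females at 9 months of age, with calorie restriction begun in adulthood, and all complexes came from fully grown follicles after hyperovulation. Mouse CR1 gave 3 of the complexes with both libraries, CR2 gave 9 and CR3 gave 13, and the 2 remaining oocytes had no cumulus library. The study followed ageing from young to old mice and the effect of the diet at middle age, and 9-month mice fed ad libitum, labelled Middle, serve below as the reference for feeding. The libraries were made by RamDA-seq, which copies total RNA along the full length of each transcript. All these groups shared the strain and hyperovulation, by eCG or CARD HyperOva, and the oocytes were kept at the germinal vesicle stage with IBMX. Which mice received which agent is not stated.

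In the ovarian follicle, the oocyte and its cumulus cells, which are granulosa cells in direct contact with it, depend on each other. The oocyte secretes growth factors of the TGF-beta superfamily that shape cumulus metabolism and proliferation, and the cumulus cells feed the oocyte through gap junctions and hold it in meiotic arrest. A fully grown oocyte at the germinal vesicle stage has largely stopped transcribing and carries a store of maternal mRNA for the meiotic divisions and the first steps of embryonic development.

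Libraries held 2752043 to 4536690 counts in oocytes (median 3578882) and 1568223 to 2501005 in cumulus cells (median 2019007). Genes with a count numbered 20740 to 23358 per oocyte library (median 21593) and 18631 to 21910 per cumulus library (median 21112). Levels are given as CPM, the count of a gene scaled to a fixed library total, after scaling by TMM, a method that sets most genes level between libraries, so a difference is relative to the other RNA of the library. Lysates of oocytes and cumulus cells were handled in different volumes and no spike-in value was used, so that fewer cells and less RNA per cell cannot be told apart in these libraries. The depth and the cell type also cannot be told apart, and no gene is called absent here.

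The labels were checked against 14 genes that mark oocytes and 11 that mark granulosa and cumulus cells. The summed oocyte markers reached 15702 to 33753 CPM in oocyte libraries (median 29076) and 0 to 362 CPM in cumulus libraries (median 3.39). The summed cumulus markers reached 8092 to 15641 CPM in cumulus libraries (median 11155) and 115 to 2283 CPM in oocyte libraries (median 296). Every library followed its label. As a percentage of the median in the other cell type, cumulus markers in oocyte libraries ranged from 1.03% to 20.5% (median 2.65%), and oocyte markers in cumulus libraries from 0% to 1.25% (median 0.0117%). In 3 oocyte libraries, 1 of CR1 and 2 of CR2, the cumulus markers exceeded 10%, and these 3 also held the highest mitochondrial shares. Without these 3 complexes, the log2 differences of the genes named below that were higher in cumulus cells moved by a median of -0.37 (further from 0) and those higher in oocytes by a median of -0.155. Among other cell types, theca and stroma markers summed to 0.412 to 14.1 CPM in oocytes and 5.01 to 55.1 CPM in cumulus cells, immune markers to 4.48 to 16.5 and 3.53 to 26.7 CPM, erythroid markers to 0.886 to 10.6 and 5.07 to 59.9 CPM, and surface epithelium markers to 0.329 to 7.31 and 0 to 4.24 CPM. Their part in the results was not tested.

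**Figure D1:**
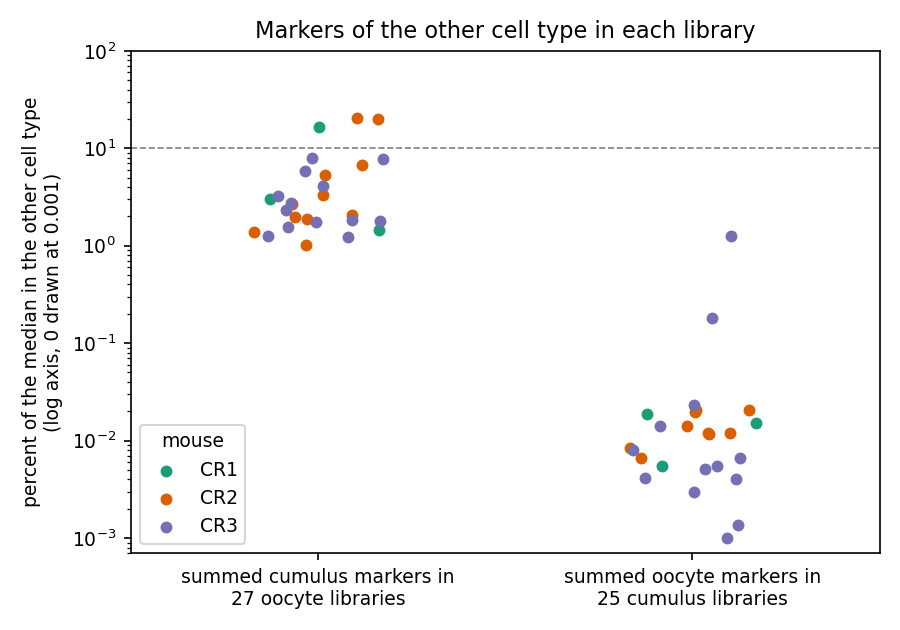
Summed level of the markers of the other cell type in each of the 27 oocyte and 25 cumulus libraries (1 point per library, coloured by mouse), as a percentage of the median in the cell type they mark, on a log axis with the dashed line at 10%. Only 3 oocyte libraries lie above the line, and the highest cumulus library reaches 1.25%.

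The sequences upstream of 4 marker genes are shown because these genes define the contrast, 3 of them read out in oocytes and the other in cumulus cells. Figla, a basic helix-loop-helix factor of oocytes, acts on E-boxes (CANNTG) upstream of the zona pellucida genes, and Nr5a1 and Nr5a2 bind the element CAAGGNCA in granulosa cell promoters. The 250 bases before the start of each gene are given 5′ to 3′ on the strand of the gene from RefSeq (GRCm38.p6), with every match to CANNTG or CAAGGNCA in capitals. The windows are chr5:135979855-135980104 (plus strand) for Zp3, chr6:86016941-86017190 (plus strand) for Figla, chrX:6320725-6320974 (minus strand) for Bmp15 and chr15:102445117-102445366 (plus strand) for Amhr2.
Zp3: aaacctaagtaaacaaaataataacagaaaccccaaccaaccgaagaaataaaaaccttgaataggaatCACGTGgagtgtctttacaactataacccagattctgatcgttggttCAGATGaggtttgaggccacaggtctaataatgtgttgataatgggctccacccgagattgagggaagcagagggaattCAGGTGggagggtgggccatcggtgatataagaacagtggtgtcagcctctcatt
Figla: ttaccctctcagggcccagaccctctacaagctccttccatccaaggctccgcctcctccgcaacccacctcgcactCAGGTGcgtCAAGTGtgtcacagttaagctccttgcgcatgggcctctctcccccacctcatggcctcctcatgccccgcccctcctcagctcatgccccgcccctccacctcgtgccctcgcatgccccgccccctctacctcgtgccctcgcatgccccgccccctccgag
Bmp15: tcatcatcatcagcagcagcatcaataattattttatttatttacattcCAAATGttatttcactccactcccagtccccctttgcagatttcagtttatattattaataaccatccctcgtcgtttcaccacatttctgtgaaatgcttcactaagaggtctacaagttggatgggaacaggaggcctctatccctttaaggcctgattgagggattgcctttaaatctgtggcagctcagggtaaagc
Amhr2: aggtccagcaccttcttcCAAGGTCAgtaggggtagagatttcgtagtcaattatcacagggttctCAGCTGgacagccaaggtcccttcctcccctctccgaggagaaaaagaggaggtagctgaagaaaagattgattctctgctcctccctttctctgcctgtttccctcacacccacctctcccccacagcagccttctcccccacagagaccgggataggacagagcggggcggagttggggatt
Both strands were searched, and CANNTG reads the same on both. The Zp3 window held CACGTG 181, CAGATG 134 and CAGGTG 55 bases before the start. An E-box occurred in 18729 of 27025 genes with a window of this length (69.3%), in 9 of the 9 oocyte markers with a sequence and in 4 of the 8 cumulus markers with a sequence. The element CAAGGNCA occurred in 1711 genes (6.33%), in 0 of these 9 oocyte markers and in 1 of these 8 cumulus markers, Amhr2, whose match lay 232 bases before the start. The Amhr2 window also held an E-box, CAGCTG, 184 bases before the start. The matches describe the letters of these windows only.

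The 2 cell types of a complex differed in most of the genes measured. Of 29856 genes tested with the complex as a block, 21859 (73.2%) differed at least 2-fold at an adjusted p under 0.05 in edgeR's quasi-likelihood test with Benjamini-Hochberg adjustment. The p limit alone was passed by 25238 genes (84.5%), and a gene that passes both limits is said to be called. Of the genes tested, 10647 (35.7%) were higher in oocytes and 11212 (37.6%) in cumulus cells, and 9535 of the called genes differed at least 8-fold. The direction was the same in all 3 mice for 20294 of the called genes. When the counts were summed per mouse, which leaves 3 pairs, every gene with any count was tested. Of these 37262 genes, 18473 were called (49.6%), and they included 18087 of the 21859 in the same direction. With the complex as a block, 21135 of the same 37262 genes were called. With so large a share of genes called, levels and sizes are given beside the calls. The oocyte and cumulus libraries did not overlap in CPM for 7767 of the genes tested (26%), and for 5459 of 10477 protein-coding genes with at least 10 CPM in a cell type (52.1%), so a lack of overlap at these levels is common and is given below as a description of each gene. The median log2 difference, oocyte minus cumulus cells, was -0.08 over all genes tested, and with plain library totals in place of TMM it was -0.67. Over the 10477 protein-coding genes with at least 10 CPM in a cell type, the median was 0.58, and -0.07 with plain totals. Of these genes, 4514 were higher in oocytes and 2886 in cumulus cells, which is the closer reference for the gene lists below.

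The difference was not symmetric in its low end. A mean of at least 10 CPM was reached by 9428 genes in oocytes, by 9106 in cumulus cells and by 6682 in both. Of those in oocytes, 632 had at most 3 counts in every cumulus library, whereas 4 of those in cumulus cells had at most 3 counts in every oocyte library, the libraries of which were deeper. Few cumulus genes were thus near 0 in every oocyte library, in which the cumulus markers had the percentages given above.

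Genes for the egg coat and egg surface were higher in oocytes for 9 of the 9 members tested, with a median log2 difference of 11.03. Zp2, which encodes a glycoprotein of the zona pellucida, was at 1797 to 5515 CPM (median 4095) in oocytes and at 0 to 45.6 CPM (median 0) in cumulus cells. Zp1 and Zp3, which encode the partner proteins of that coat, had log2 differences of 11.13 ± 0.46 and 11.60 ± 0.47. The oocyte and cumulus values of these genes did not overlap. Astl encodes ovastacin, the protease that cleaves Zp2 after fertilisation, and was at 85.3 to 915 CPM (median 588) in oocytes and 0 to 6.08 CPM (median 0) in cumulus cells. Oosp1, which encodes a secreted oocyte protein, differed by 11.25 ± 0.37.

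All 9 genes of the subcortical maternal complex and its partners, an assembly under the egg surface needed by the early embryo, were higher in oocytes (median log2 difference 12.50). Nlrp14 had the largest difference among genes with a mean of at least 100 CPM, with 2401 to 9101 CPM (median 7006) in oocytes and 0 to 5.57 CPM (median 0) in cumulus cells and a log2 difference of 14.47 ± 0.32. Nlrp5 (also called Mater) was at 514 to 3408 CPM (median 2548) in oocytes against 0 to 5.07 CPM (median 0). Padi6, which encodes a component of the cytoplasmic lattices, was at 701 to 5136 CPM (median 4316) against 0 to 44.1 CPM (median 0). The oocyte range of these genes was wide, and the lowest oocyte still stood above the highest cumulus library. Ooep and Zbed3, further members, had log2 differences of 9.66 ± 0.32 and 8.01 ± 0.14, and Zbed3 was the member with a level in all cumulus libraries, at 15.5 to 114 CPM (median 21.5).

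The other genes among the 10 largest differences included copies of oocyte gene families. Nlrp9b, Nlrp4f, Nlrp9a and C86187 differed by 13.72, 12.78, 12.74 and 12.69, and Bnc1, which encodes a zinc finger protein, by 12.95. Reads of near-identical copies were shared between genes by the authors, and 89.7% of the nonzero Nlrp4f values and 75.0% of those of Nlrp9b were not whole, so the split between copies is uncertain. Across the Oog, Obox, Oosp, Nlrp4 and Nlrp9 families, 34 of 34 genes tested were higher in oocytes, with a median of 9.71.

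Of 12 transcription factor genes of oocytes tested, 11 were higher in oocytes (median 9.58). Nobox, needed for the expression of many oocyte genes, was at 349 to 562 CPM (median 471) in oocytes and 0 to 6.08 CPM (median 0) in cumulus cells. Figla had a low level in oocytes, 5.12 to 22.2 CPM (median 14.6), and no count in any cumulus library, which makes it at least 12.5-fold higher in oocytes when the cumulus side is set to the floor of 3 counts per library. Sall4, a zinc finger factor, and Obox1, a homeobox factor, differed by 12.55 ± 0.26 and 10.71 ± 0.33. Of 11 granulosa transcription factors, 7 were higher in cumulus cells and 0 in oocytes (median -2.24). Foxl2, which maintains granulosa identity, was at 27.7 to 77.6 CPM (median 52.1) in cumulus cells and 0 to 7.7 CPM (median 0.368) in oocytes. Runx1 and Gata6 differed by -5.91 ± 0.28 and -3.33 ± 0.17, and Nr5a1 by -5.03 ± 0.26. Nr5a2 and Gata4 had levels in all oocyte libraries, Nr5a2 at 79.9 to 169.7 CPM (median 96.3) against 411 to 688 CPM (median 482) in cumulus cells, and their differences were -2.24 ± 0.08 and -1.52 ± 0.11.

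The growth factor genes of the oocyte were higher in oocytes for 5 of 5 members (median 8.87). Gdf9 (ENSMUSG00000018238, GRCm38 chr11:53431023-53437904) was at 3313 to 6520 CPM (median 5708) in oocytes and 0 to 64.4 CPM (median 0.778) in cumulus cells, with a log2 difference of 11.96 ± 0.41 and an adjusted p of 4.77e-22. Bmp15 (ENSMUSG00000023279, chrX:6314107-6320721) was at 3592 to 6021 CPM (median 4677) against 0 to 26.4 CPM (median 0), with a difference of 13.51 ± 0.41. The highest cumulus values of both came from mouse CR3 and stayed far below the lowest oocyte. Fgf8, a fibroblast growth factor that acts with Bmp15 on cumulus glycolysis, was at 28.9 to 50.1 CPM (median 40.1) in oocytes and 0 to 1.52 CPM (median 0) in cumulus cells. Jag1, a Notch ligand, differed by 8.87 ± 0.29. Bmp6 was the ligand with a level in every cumulus library, 8.28 to 49.1 CPM (median 27.8) against 149 to 253 CPM (median 202) in oocytes, a difference of 2.92 ± 0.12.

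The receptors of these ligands showed no such split. Of 12 tested, 3 were higher in oocytes, 5 in cumulus cells and 4 were not called, with a median of -0.22. Bmpr2, the type II receptor of Gdf9 and Bmp15, was at 785 to 2463 CPM (median 1726) in cumulus cells and 601 to 1058 CPM (median 736) in oocytes, a difference of -1.15 ± 0.09 with overlapping ranges (-0.89 with counts summed per mouse). Bmpr1b, a type I receptor, was higher in oocytes at 356 to 482 CPM (median 394) against 93.8 to 297 CPM (median 168). Bmpr1a had a difference of 0.15 ± 0.08 (adjusted p = 0.0712), which became negative with plain library totals and with RLE size factors, the scaling of DESeq2. Tgfbr1, the type I receptor through which Gdf9 signals, differed by -0.60 ± 0.12 (adjusted p = 4.02e-05), which was under 2-fold. Fgfr1 and Fgfr2, receptors for fibroblast growth factors, differed by 1.01 ± 0.14 and 1.24 ± 0.17, and with plain library totals both were under 2-fold, as was Bmpr1b. Notch2 was higher in cumulus cells (-1.96 ± 0.11), and Notch1, at 2.94 to 16.6 CPM (median 9.47) in oocytes and 0 to 18.7 CPM (median 6.22) in cumulus cells, was not called.

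In the SMAD pathway, which carries the signal of these receptors to the nucleus, 3 of 11 genes were higher in oocytes and 7 in cumulus cells (median -1.54). Smad3, which transmits activin and Gdf9 type signals, was at 289.5 to 744 CPM (median 638) in oocytes and 28.4 to 70.5 CPM (median 49.1) in cumulus cells, and Smad2 differed by 1.51 ± 0.13. Smad5, which transmits bone morphogenetic protein signals, was higher in cumulus cells by a difference of -1.18 ± 0.07. The feedback gene Smad7, an inhibitory SMAD, was at 52 to 173 CPM (median 116) in cumulus cells against 0 to 16.9 CPM (median 2.44), and Id3, a target gene of bone morphogenetic proteins, at 118 to 341 CPM (median 190.1) against 0.75 to 40.3 CPM (median 6.34). Both had no overlap between the cell types.

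The receptor of the Kit system was read out in oocytes and its ligand in both cell types. Kit (ENSMUSG00000005672, chr5:75574916-75656722), the receptor on the oocyte, was at 296 to 909 CPM (median 703) in oocytes and 0 to 21.8 CPM (median 8.37) in cumulus cells, a difference of 6.43 ± 0.29 (adjusted p = 4.13e-19). Kitl (ENSMUSG00000019966, chr10:100015630-100100416), its ligand from granulosa cells, was at 18.8 to 84 CPM (median 42.1) in cumulus cells and 6.5 to 53.4 CPM (median 20.6) in oocytes, a difference of -1.15 ± 0.13 (adjusted p = 1.98e-09). Kitl was higher in cumulus cells in 24 of 25 complexes, but the ranges overlapped. With counts summed per mouse the Kitl difference was -0.80 (adjusted p = 0.0099), which was under 2-fold. Among the 11 cumulus markers, which were all higher in cumulus cells (median -5.14), the Kitl difference was the smallest.

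Meiotic arrest depends on cGMP made in cumulus cells and on cAMP made in the oocyte. Of 12 genes of this pathway, 3 were higher in oocytes and 6 in cumulus cells (7 without the 3 complexes of high cumulus markers). Npr2 (chr4:43631935-43651244), the guanylyl cyclase that makes cGMP, was at 181 to 481 CPM (median 347) in cumulus cells and 0 to 50.2 CPM (median 3.55) in oocytes, a difference of -5.85 ± 0.39 without overlap. Its ligand gene Nppc (chr1:86666291-86670571), which is known from mural granulosa cells, was at 0.407 to 52 CPM (median 10.5) in cumulus cells and 0 to 12.8 CPM (median 1.1) in oocytes, and the ranges overlapped. Impdh1, which encodes an enzyme for guanine nucleotides, differed by -4.06 ± 0.17, and Prkar2b, a regulatory subunit of protein kinase A, by -3.13 ± 0.15. On the oocyte side, Pde3a (chr6:141249269-141507448), the phosphodiesterase that breaks down cAMP, was at 409 to 996 CPM (median 802) in oocytes and 0 to 11.1 CPM (median 1.93) in cumulus cells. Gpr3, the receptor that keeps cAMP high, was at 56.6 to 117 CPM (median 89.8) in oocytes and 0 to 2.03 CPM (median 0) in cumulus cells. The 2 oocyte genes and the cyclase of the cumulus cells thus lay on opposite sides, with log2 differences of 8.62 ± 0.34, 7.99 ± 0.28 and -5.85 ± 0.39.

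Genes of the contact between the cells were also split by member, with 4 of 9 higher in oocytes and 3 in cumulus cells. Gja4, which encodes connexin 37 of the oocyte's gap junctions, was at 588 to 951 CPM (median 788) in oocytes and 0 to 11.7 CPM (median 1.54) in cumulus cells, and Gja1, which encodes connexin 43 between cumulus cells, at 3287 to 6969 CPM (median 5921) in cumulus cells and 4.12 to 952 CPM (median 79.1) in oocytes. Cdh1, the adhesion gene E-cadherin, differed by 11.29 ± 0.25. Daam1, a formin that drives actin assembly, was higher in oocytes (3.71 ± 0.12), and Fscn1, which bundles actin in the cumulus projections, in cumulus cells (-4.42 ± 0.18). None of these 5 genes overlapped between the cell types.

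**Figure D2:**
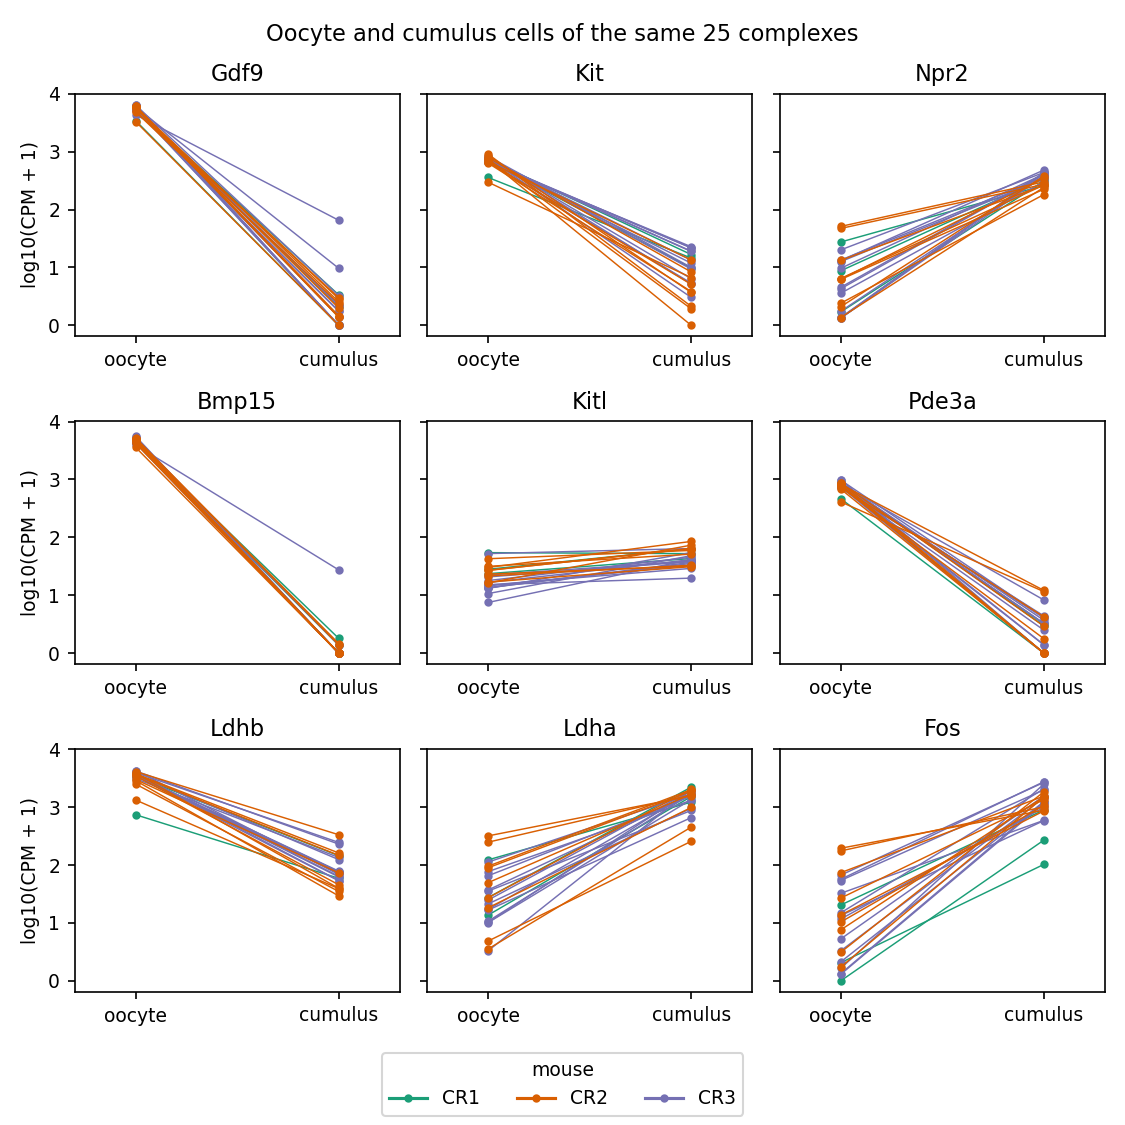
Levels of 9 genes in the oocyte and the cumulus cells of the same complex, as log10(CPM + 1), with 1 line per complex for 25 complexes and colours for the 3 mice. Gdf9, Bmp15, Kit, Pde3a and Ldhb are higher in the oocyte in every complex, Npr2, Ldha and Fos are higher in cumulus cells in every complex, and Kitl is higher in cumulus cells in 24 of 25.

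Genes known from the response of cumulus cells to ovulatory signals were split by member. The paper describes no ovulatory injection after eCG or CARD HyperOva, so their levels are not a measured response. Of 11 genes for cumulus expansion and the EGF pathway, 9 were tested, of which 4 were higher in cumulus cells and 2 in oocytes. Vcan, a proteoglycan of the cumulus matrix, was at 647 to 1329 CPM (median 865) in cumulus cells and 0 to 155 CPM (median 8.72) in oocytes. Btc, an EGF-like ligand, was low, at 0 to 11.4 CPM (median 2.77) in cumulus cells and 0 to 1.13 CPM (median 0) in oocytes. Egfr, their receptor, was at 44.7 to 502 CPM (median 241) in cumulus cells and 79.4 to 301 CPM (median 171) in oocytes, a difference of -0.19 ± 0.18 (adjusted p = 0.33), and Egfr was higher in cumulus cells in 15 of 25 complexes. Ptgs2, which encodes cyclooxygenase 2 and marks expanded cumulus cells, was low in both, with 3.71 to 26.3 CPM (median 13.6) in oocytes and 0 to 7.12 CPM (median 0) in cumulus cells. Pde10a, a phosphodiesterase listed here for cumulus cells, was higher in oocytes (4.35 ± 0.38).

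Genes for the resumption of meiosis were higher in oocytes for 14 of 19 tested and in cumulus cells for 0 (1 without the 3 complexes of high cumulus markers), with a median of 2.12. Wee2, the kinase that holds CDK1 inactive in oocytes, was at 586 to 1198 CPM (median 734) in oocytes and 0 to 3.04 CPM (median 0) in cumulus cells. Mos, the kinase upstream of MAP kinase in oocytes, was at 329 to 553 CPM (median 479.5) against 0 to 8.62 CPM (median 0). Ccnb1, cyclin B1, had a level in both, 669.5 to 967 CPM (median 739) in oocytes and 45 to 107 CPM (median 82.1) in cumulus cells, a difference of 3.22 ± 0.07, and 100% of its nonzero values were not whole, as reads that also map to copies of the gene were shared. Mastl, the kinase that keeps CDK1 substrates phosphorylated, differed by 3.67 ± 0.11, and Btg4, an adaptor for the decay of maternal mRNA, by 10.78 ± 0.32. All 5 had no overlap between the cell types.

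The hormone genes of granulosa cells stood on the cumulus side. Of 10 genes for AMH, inhibins and follistatin, 6 were higher in cumulus cells and 1 in oocytes (median -5.01). Inha and Inhba, subunits of inhibin and activin, were at 1633 to 4840 CPM (median 2721) and 0.784 to 2683 CPM (median 1499) in cumulus cells, and Inhbb at 121 to 4350 CPM (median 3214). Inha had no overlap with oocytes, whereas single cumulus libraries fell into the oocyte range for Inhba and Inhbb. Amh, the hormone that restrains follicle growth, spread widely over cumulus libraries at 3.04 to 836 CPM (median 54.5) and was at 0 to 18.4 CPM (median 2.2) in oocytes. Its receptor Amhr2 differed by -5.13 ± 0.27, and Fst, which encodes follistatin, by -5.97 ± 0.38. Acvr1b, an activin receptor, was the member higher in oocytes, at 81.8 to 218 CPM (median 165) against 0 to 28.9 CPM (median 17.9).

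In steroid synthesis, 9 of 12 genes were higher in cumulus cells and 1 in oocytes (median -2.65). Hsd17b1, which makes estradiol from estrone, was at 227 to 1053 CPM (median 644) in cumulus cells and 0.412 to 162 CPM (median 8.25) in oocytes. Cyp19a1, the aromatase, was at 18 to 203 CPM (median 99.4) in cumulus cells and 10.2 to 52.1 CPM (median 23.6) in oocytes, with overlap, and Hsd3b1 differed by -4.21 ± 0.34. Scarb1, the receptor for high-density lipoprotein, differed by -2.65 ± 0.09. Hsd17b7, which acts in steroid and cholesterol synthesis, was the member higher in oocytes (1.28 ± 0.17), with overlapping ranges and a difference under 2-fold with plain library totals.

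Of 9 gonadotropin and steroid receptors tested, 5 were higher in cumulus cells and 2 in oocytes. Fshr, the receptor for follicle-stimulating hormone, was at 33.8 to 159 CPM (median 95.2) in cumulus cells and 0.412 to 32.3 CPM (median 6.11) in oocytes, without overlap. Esr1, an estrogen receptor, was higher in oocytes, at 52.3 to 257 CPM (median 164) against 18.4 to 96.5 CPM (median 60.8), and Prlr, the prolactin receptor, differed by 1.78 ± 0.18. The ranges overlapped for both.

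The subunits of lactate dehydrogenase stood on opposite sides. Of 20 glycolysis genes, 15 were higher in cumulus cells and 1 in oocytes (median -2.94). Ldha (ENSMUSG00000063229, chr7:46841475-46855627), the subunit favoured in glycolytic cells, was at 257 to 2222 CPM (median 1619) in cumulus cells and 1.24 to 318 CPM (median 23.9) in oocytes, a difference of -5.49 ± 0.35. Ldhb (ENSMUSG00000030246, chr6:142490249-142507957), the subunit favoured where lactate is turned into pyruvate, was at 740 to 4301 CPM (median 3549) in oocytes and 28.3 to 333 CPM (median 72.3) in cumulus cells, a difference of 5.31 ± 0.19. Each pointed the same way in 25 of 25 complexes. Eno1 and Tpi1, enzymes of the middle steps, differed by -3.59 ± 0.16 and -2.77 ± 0.13, and Pkm, the last step to pyruvate, by -1.23 ± 0.12 with higher oocyte values in 2 of 25 complexes. These glycolysis genes have processed copies in the genome, and 86.5% to 100% of their nonzero values, Ldhb apart, were not whole.

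Cholesterol genes were higher in cumulus cells for 16 of 22 and in oocytes for 2 (median -2.19). Sqle and Msmo1, enzymes of the later steps, differed by -2.36 ± 0.12 and -2.61 ± 0.13. Fdft1, squalene synthase, was higher in oocytes, at 455 to 622 CPM (median 522) against 47.2 to 125 CPM (median 84.4). None of these 3 overlapped between the cell types.

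In fatty acid oxidation, 10 of 17 genes were higher in cumulus cells and 3 in oocytes (median -2.57). Cpt1a, the carnitine transferase of the outer mitochondrial membrane, was at 39.5 to 111 CPM (median 62.8) in cumulus cells and 0.982 to 18.5 CPM (median 3.25) in oocytes, and Hadh, a beta-oxidation enzyme, differed by -3.60 ± 0.18. Cpt2, the transferase of the inner membrane, was higher in oocytes (1.43 ± 0.10). Of 23 antioxidant genes, 12 were higher in cumulus cells and 5 in oocytes (median -1.02), and these counts were 13 and 3 without the 3 complexes of high cumulus markers. Prdx2, a peroxiredoxin, was at 510 to 824 CPM (median 629) in oocytes and 127 to 261 CPM (median 177) in cumulus cells, and Sod1, the cytosolic superoxide dismutase, differed by 1.09 ± 0.07, which was under 2-fold with either of the other scalings. Prdx4, the peroxiredoxin of the endoplasmic reticulum, was higher in cumulus cells (-3.89 ± 0.20).

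The mitochondrially encoded genes took 1.14% of the counts of oocytes and 8.08% of those of cumulus cells (means over 25 complexes). The share was lower in the oocyte in 25 of 25 complexes, by a mean difference of -6.95 ± 1.62 percentage points (SD), with a two-sided permutation p of 2e-05, the smallest that 100000 resamples can give. Over the 3 mice the exact p was 0.25, the smallest that this number of mice allows. Of the 13 protein-coding genes, 12 were higher in cumulus cells and 0 in oocytes (median -1.81). mt-Co1, a subunit of cytochrome oxidase, had 1099 to 2853 CPM (median 1607) in oocytes and a median of 5945 CPM in cumulus cells, and mt-Nd1, a subunit of complex I, 346 to 1088 CPM (median 505) and 1186 to 3018 CPM (median 1752). The differences of mt-Nd4, mt-Nd5 and mt-Co2 were -1.87 ± 0.11, -2.60 ± 0.14 and -1.73 ± 0.11. These 13 genes alone gave a difference in share of -1.73 points, and the rest of the share came from ribosomal and transfer RNA. The 3 oocytes of high cumulus markers had mitochondrial shares of 1.79%, 1.96% and 3.47%, the highest among oocytes, so the cumulus markers moved with this share, and their part in it was not tested. These libraries do not count mitochondria or their DNA.

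**Figure D3:**
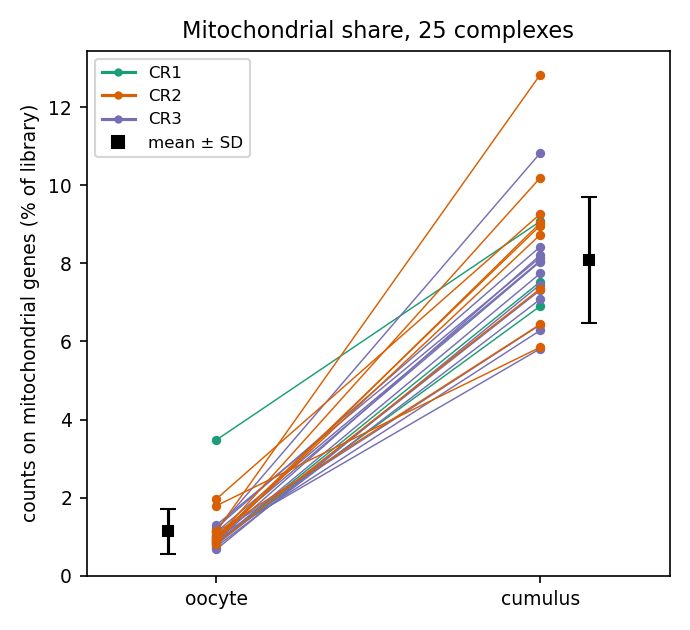
Percentage of the counts of each library on mitochondrially encoded genes, with 1 line per complex for 25 complexes, colours for the 3 mice and squares with bars for the mean ± SD of each cell type. All 25 lines rise from oocyte to cumulus cells, from a mean of 1.14% to a mean of 8.08%.

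The DNA methylation genes included 8 of 13 higher in oocytes and 3 in cumulus cells (median 2.78). Dnmt1, the maintenance methyltransferase, which oocytes store as a maternal product, was at 2137 to 5686 CPM (median 5102) in oocytes and 113 to 256 CPM (median 213) in cumulus cells. Its partner Uhrf1 differed by 2.82 ± 0.08, while the related Uhrf2 was higher in cumulus cells (-4.12 ± 0.21). Tet3, the oxidase that acts on the paternal genome after fertilisation, was at 1317 to 4186 CPM (median 3414) in oocytes and 63.6 to 218 CPM (median 95.9) in cumulus cells, whereas Tet1 was higher in cumulus cells (-3.10 ± 0.17). Paralogues of the same enzyme family thus pointed in opposite directions without overlap. Zfp57, which protects imprints, differed by 10.77 ± 0.37.

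Genes for the storage and decay of maternal mRNA were higher in oocytes for 16 of 20 and in cumulus cells for 3 (median 8.95). Cpeb1, which binds the cytoplasmic polyadenylation element, was at 739 to 1265 CPM (median 1135) in oocytes and 0 to 6.08 CPM (median 0) in cumulus cells. Zar1, needed for the oocyte's RNA stores, differed by 10.02 ± 0.41, and Lsm14b and Eif4enif1, which repress translation, by 5.24 ± 0.08 and 3.98 ± 0.06. Tut4, a uridyltransferase, pointed the other way, at 326 to 563 CPM (median 434) in cumulus cells and 0 to 80.7 CPM (median 5.49) in oocytes. Ddx6, a helicase of the repressive complex, differed by -1.01 ± 0.09 and was under 2-fold per mouse. Npm2, a histone chaperone of the egg nucleus, was at 278 to 427 CPM (median 364) in oocytes and 0 to 21.3 CPM (median 0.396) in cumulus cells.

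Of 17 genes of small RNA pathways, 12 were higher in oocytes and 3 in cumulus cells (median 2.98). Dicer1, which makes endogenous siRNA in mouse oocytes, was at 734 to 1605 CPM (median 1441) in oocytes and 79.2 to 212 CPM (median 146) in cumulus cells. Tdrd1 and Mael, of the piRNA pathway, differed by 11.67 ± 0.32 and 9.83 ± 0.28, while Ago2, the slicing Argonaute, was higher in cumulus cells (-1.35 ± 0.12). Ago2 was higher in the oocyte in 1 of 25 complexes.

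Among 21 genes of cohesin and its protectors, 11 were higher in oocytes and 4 in cumulus cells (median 1.18). Of the 19 chromosome segregation genes that the study names, 11 were higher in oocytes and 0 in cumulus cells (median 1.18). Over protein-coding genes with at least 10 CPM, 4514 of 10477 were higher in oocytes and 2886 in cumulus cells (median 0.58). The study chose the 19 genes on libraries that included these, so they are not independent evidence of a direction. Cdca5, sororin, which protects cohesin, was at 390 to 529 CPM (median 466) in oocytes and 16.3 to 40.7 CPM (median 27.4) in cumulus cells. Esco2, the acetyltransferase that establishes cohesion, and Wapl, which releases cohesin, differed by 3.46 ± 0.11 and 1.78 ± 0.07, and Pds5a, a cohesin cofactor, was higher in cumulus cells (-1.99 ± 0.11). Cenpf, Cenpe and Kif2c, proteins of the kinetochore, differed by 2.21 ± 0.08, 1.89 ± 0.06 and 2.27 ± 0.09. The difference of Bub1, a checkpoint kinase, was 1.08 ± 0.06, and it was under 2-fold with either of the other scalings.

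Genes for DNA replication and proliferation were divided between the cell types, with 4 of 23 higher in oocytes, 5 in cumulus cells and 14 not called. Their median was 0.18 with TMM and -0.48 with plain totals, where protein-coding genes with at least 10 CPM had 0.58 and -0.07. Top2a, topoisomerase II of dividing cells, was at 431 to 734 CPM (median 632) in cumulus cells and 100.1 to 268 CPM (median 136) in oocytes, and Ccnd2, the cyclin of proliferating granulosa cells, at 622 to 1293 CPM (median 856) and 11.2 to 518 CPM (median 59.8). Cdt1 and E2f1, which license and drive the S phase, were higher in oocytes by 1.92 ± 0.08 and 2.09 ± 0.08. All 4 were without overlap.

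Calorie restriction is known to act on the insulin, IGF1 and mTOR pathways, and 30 genes of nutrient sensing were therefore examined. In oocytes 10 were higher, in cumulus cells 9, and 11 were not called. Over all genes tested, 35.7% were higher in oocytes and 37.6% in cumulus cells. The median of the list was 0.18 (-0.47 with plain totals), against 0.58 (-0.07) over protein-coding genes with at least 10 CPM. Igf1, the growth factor, was at 169 to 446 CPM (median 360) in cumulus cells and 0.331 to 71.9 CPM (median 7.33) in oocytes, and its receptor Igf1r at 251 to 711 CPM (median 359.6) and 37.4 to 103 CPM (median 69.2). Foxo3, the factor that holds follicles dormant, was at 629 to 1434 CPM (median 1159) in oocytes and 33.4 to 128 CPM (median 67.7) in cumulus cells. Rictor, of mTOR complex 2, was higher in oocytes by 2.98 ± 0.10. Ligand and receptor of this pathway were thus on the cumulus side, and Foxo3 and Rictor on the oocyte side, each without overlap.

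Immediate early genes, which cells transcribe within minutes of a stimulus or of handling, were higher in cumulus cells for 19 of 20 (median -4.73). Fos was at 102 to 2751 CPM (median 1245) in cumulus cells and 0 to 194 CPM (median 9.37) in oocytes, a difference of -6.63 ± 0.51, and Jun and Fosb differed by -6.32 ± 0.47 and -6.12 ± 0.38. Their cumulus levels varied between mice. The summed level of the 20 genes had a median of 1306 CPM in the 3 cumulus libraries of CR1, 4631 CPM in the 9 of CR2 and 4940 CPM in the 13 of CR3. Egr1, a zinc finger factor, was at 118 to 1524 CPM (median 706) in cumulus cells and 20.5 to 137 CPM (median 34.7) in oocytes, with overlap, and Btg2 differed by -3.07 ± 0.16. Time between killing and lysis was not given in the labels.

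A list of noncoding RNAs, which held long ones such as Xist and short ones such as Rmrp and Rn7sk, was higher in cumulus cells for 11 of the 11 tested (median -4.50). Xist, the RNA that coats the inactive X chromosome, was at 144 to 679 CPM (median 260.2) in cumulus cells and 0 to 27.6 CPM (median 0.366) in oocytes, in which both X chromosomes are active. Neat1, the scaffold of paraspeckles, ranged from 34.1 to 1799 CPM (median 169) in cumulus cells and from 0 to 40.4 CPM (median 0.731) in oocytes, and Malat1, of nuclear speckles, from 1737 to 5094 CPM (median 2807) and from 5.89 to 541 CPM (median 62.2). Kcnq1ot1, an imprinted antisense RNA, differed by -5.17 ± 0.35. Counts are not stated to use the strand, so that Xist and Kcnq1ot1 cannot be told apart from genes on the other strand. As a share of all counts, long noncoding RNA took 2.14 ± 0.17% in oocytes and 5.81 ± 1.3% in cumulus cells (mean ± SD, n = 27 and 25), and protein-coding genes 94.5 ± 0.8% and 80.7 ± 2.26%. Among protein-coding genes with a mean of at least 10 CPM, the median difference was 0.59 over 10096 autosomal genes and 0.10 over 353 genes of the X chromosome. With RLE size factors these medians were 0.38 and -0.11. Single autosomes ranged from 0.26 (chr17) to 0.97 (chr5), and the cause of the X chromosome median was not tested.

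The other genes with the largest differences on the cumulus side were Thbs1 (-6.51 ± 0.48), which encodes a matrix glycoprotein, Slc38a2 (-6.27 ± 0.47), an amino acid transporter, Ltbp1 (-6.17 ± 0.42), which binds latent TGF-beta, and Vegfa (-6.00 ± 0.37), the vascular growth factor. Slc38a2 was at 270.1 to 750 CPM (median 428) in cumulus cells and 0 to 79.6 CPM (median 1.77) in oocytes. Cumulus cells are known to pass amino acids to the oocyte, and the transporter read out in them was near 0 in the median oocyte.

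Some genes known from other cell types had a level in oocytes. Of 5 endothelial markers, 4 were tested, 3 of them higher in oocytes and 1 in cumulus cells, and their sum was 114 to 167 CPM in oocytes and 0 to 8.12 CPM in cumulus cells. Pecam1, an adhesion gene, was at 81.1 to 121 CPM (median 107) in oocytes and 0 to 4.71 CPM (median 0.793) in cumulus cells, Tek, an angiopoietin receptor, at 15.1 to 47.5 CPM (median 31.2) and 0 to 0.774 CPM (median 0), and Kdr, a receptor of VEGF, at 2.24 to 16.6 CPM (median 5.79) and 0 to 1.55 CPM (median 0). Emcn, a further endothelial marker, had no count in either cell type. The levels of Pecam1 varied little between the oocytes.

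**Figure D4:**
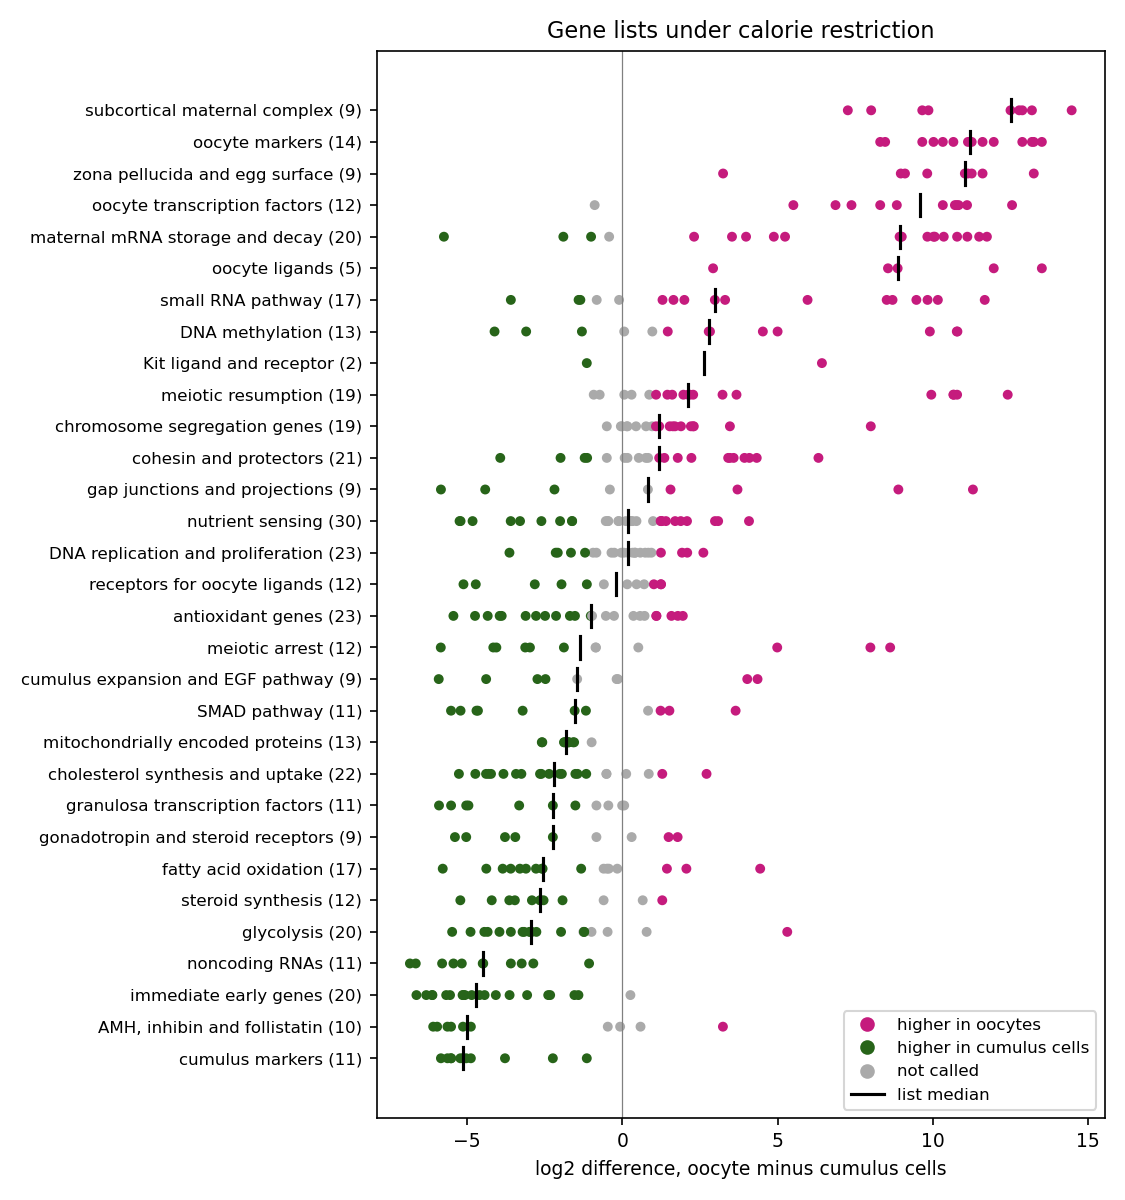
Log2 difference, oocyte minus cumulus cells, of each gene tested in 31 gene lists (points, with the number of genes in brackets, coloured by the call) and the median of each list (black bar). The lists run from a median of 12.50 for the subcortical maternal complex to -5.14 for the cumulus markers.

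Housekeeping families were examined as well. Of 82 genes for cytoplasmic ribosomal proteins, 66 were higher in cumulus cells and 2 in oocytes (median -1.55), and of 70 replication-dependent histone genes, 46 and 5 (median -1.5). Both medians stayed negative with plain totals (-2.20 and -2.13). The genes for mitochondrial ribosomal proteins and the proteasome had medians of 0.18 and 0.14, both of which became negative with plain totals. Protein-coding genes with at least 10 CPM had a median of 0.58, which also became negative with plain totals (-0.07). Multi-mapped reads are shared with pseudogenes in the ribosomal protein and histone families, so single members are not named.

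Oocytes varied less among themselves than cumulus pools. Over 4707 genes with at least 20 CPM in both cell types, the biological coefficient of variation, which is the spread between libraries beyond counting error, had a median of 16% in oocytes and 21.5% in cumulus cells. The 10 genes with most counts took 4.51 ± 0.33% of an oocyte library and 15.5 ± 2.14% of a cumulus library. The shallower cumulus libraries and their mitochondrial share moved with this difference, and their part in it was not tested.

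To ask whether the distance between the 2 cell types changed under calorie restriction, the 25 complexes were set against 14 complexes of 4 mice fed ad libitum at 9 months in a single fit with an interaction term. An ad libitum complex whose oocyte library resembled cumulus cells was left out. CPM in this comparison were scaled by TMM over the CR and ad libitum libraries together, with the complex left out of the fit included. The CPM of the same CR libraries therefore differ slightly from those above. Of 31272 genes tested, 935 (2.99%) had a difference between oocyte and cumulus cells that itself differed at least 2-fold between feedings, 343 (1.1%) shifted towards the oocyte under CR and 592 (1.89%) towards the cumulus cells. When counts were summed per mouse, 38255 genes with any count were tested and 350 were called. Of the 350, 273 shifted towards the oocyte and 77 towards the cumulus cells, and 251 were among the 935. The split by direction thus depended on the unit. Feeding cannot be told apart from the mice and the depth, with median totals of 2332130 counts in ad libitum oocytes and 1085180 in their cumulus cells. The paper also describes individual housing and a daily meal for the CR mice, which cannot be told apart from the amount of food. The agent of hyperovulation is not given by group, so a difference in it cannot be told apart from feeding either.

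The mitochondrially encoded genes shifted together. Of 13, 12 were called towards the oocyte under CR, with a median interaction of 1.25. mt-Co2 was at 221 to 648 CPM (median 363) in CR oocytes and 74.8 to 175 CPM (median 97.4) in ad libitum oocytes, ranges that did not overlap, while its levels in cumulus cells were 780.2 to 2252 CPM (median 1196) and 692 to 1559 CPM (median 1299). The difference between the cell types was -1.76 under CR and -3.61 ad libitum, an interaction of 1.85 ± 0.17 (adjusted p = 3.98e-10). The 13 genes took 0.372 ± 0.118% of the counts of CR oocytes and 0.153 ± 0.053% of those of ad libitum oocytes, against 2.10 ± 0.42% and 2.30 ± 0.37% in cumulus cells (mean ± SD, n = 25 and 14 complexes). All genes of the mitochondrial genome, ribosomal RNA included, took 1.14 ± 0.57% and 0.79 ± 0.289% in oocytes, with overlapping ranges, and 8.08 ± 1.61% and 8.13 ± 1.11% in cumulus cells. The summed cumulus markers, a measure of cumulus RNA in oocyte libraries, had medians of 346, 376 and 263 CPM in the oocytes of CR1, CR2 and CR3 and of 107 to 1545 CPM in those of the 4 ad libitum mice.

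Immediate early genes shifted in the other direction, with 7 of 20 called towards the cumulus cells under CR and 0 towards the oocyte. Egr1 was at 120.5 to 1561 CPM (median 723) in CR and 103 to 1384 CPM (median 256) in ad libitum cumulus cells and at 20.9 to 139.8 CPM (median 36.4) and 51.8 to 133 CPM (median 74.5) in oocytes, an interaction of -2.20 ± 0.34 (adjusted p = 1.03e-05). The ranges overlapped in both cell types. With counts summed per mouse, the Egr1 interaction was -1.04 at an adjusted p of 0.192. The summed level of the 20 genes in cumulus libraries had medians of 1306, 4631 and 4940 CPM in CR1, CR2 and CR3. In ad libitum mice the medians were 1990 CPM in Middle1 (3 libraries), 1324 CPM in Middle2 (6 libraries) and 1330 CPM in Middle4 (4 libraries), and the only library of Middle3 was at 6216 CPM. Mice of both feedings thus had low and high medians, the high one among ad libitum mice being a single library.

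Among single genes, Trim6, which encodes a ubiquitin ligase, was at 10.9 to 85.9 CPM (median 41.3) in CR oocytes and 0 to 17.3 CPM (median 2.8) in ad libitum oocytes, with 0 to 17.1 CPM (median 5.6) and 1.7 to 16.1 CPM (median 7.51) in cumulus cells. The oocyte was the higher cell under CR (2.73) and the cumulus cells ad libitum (-1.33). Lrrtm3, a synaptic adhesion gene, changed sides in the same way but on the cumulus side, with 0 to 40.5 CPM (median 2.25) in CR and 16 to 84.8 CPM (median 38.5) in ad libitum cumulus cells. In all, 224 of the 935 genes had differences of opposite sign in the 2 feedings. Most genes lay near the line of equal differences in the plot of both feedings.

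**Figure D5:**
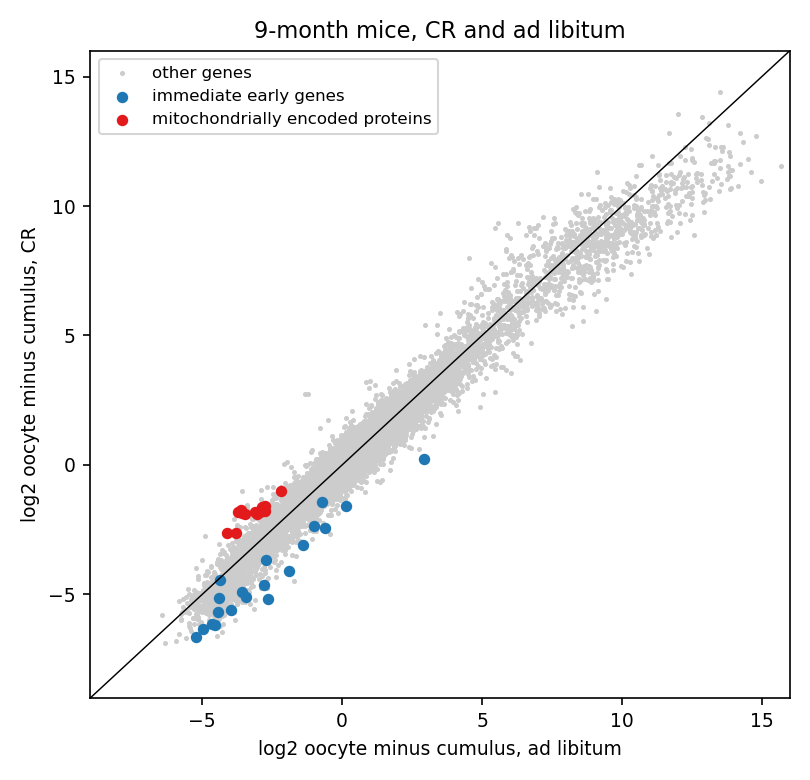
Log2 difference, oocyte minus cumulus cells, in 14 ad libitum complexes (x axis) and 25 CR complexes (y axis) for 10408 genes with a mean of at least 10 CPM or in a coloured list, with the line of equal differences. The 13 mitochondrially encoded protein genes lie above the line, and the 20 immediate early genes lie below it.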

How the data were processed

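Before deposit, the authors removed adapters (Fastq-mcf), aligned reads to the GRCm38 assembly (HISAT2 2.0.5) and assigned them to GENCODE genes (featureCounts 1.5.1), also where a read mapped to several places. The deposited table gives expected counts of 41092 genes. In the CR libraries, 37.6% of its nonzero values were not whole, because such reads were shared between genes. The design took the values for plain counts, so they were rounded before edgeR and DESeq2. The RPKM values that the authors also deposited were not used. Symbols and positions were taken from GENCODE vM21, which held 40982 of the gene identifiers.

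A gene was tested if 5 or more libraries had a count for it, and with counts summed per mouse if it had any count. Tests used edgeR 4.0.16 under R 4.3.3 (quasi-likelihood F test after TMM scaling, Benjamini-Hochberg adjustment), with the complex as a block, and a gene was called at an adjusted p under 0.05 and an absolute log2 difference of at least 1. Errors of log2 differences are approximate standard errors, the absolute difference divided by the square root of the F statistic. Where the lower cell type had a median of 0 CPM, the size of the difference rests on few counts there. Complexes of the same mouse are not independent, so counts were also summed per mouse. The comparison with feeding used the interaction of cell type and feeding, with the complex as a block. Alternatives were DESeq2 1.42.0, other scalings, other filters on low counts, thinning to equal totals, a test against a 2-fold change, the fit without the block, and fits without the 3 complexes that stood apart and without each mouse. The test was checked on simulated data. For the cell types, that simulation changed far fewer genes than differed here, so it cannot speak for so large a share of calls. The mitochondrial share was compared by permutation tests in scipy 1.17.1, with 100000 resamples over complexes and exactly over mice, and figures were drawn with matplotlib 3.10.9. RamDA-seq reads carry no molecular identifiers, so that errors cover the spread between libraries and not duplicated reads. No pair of libraries within a cell type agreed within sampling noise.

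The pairing of oocyte and cumulus cells comes from the labels, which give the complex and the mouse. The deviations of both cells from their group means had a median correlation of 0.0767 within complexes, 0.0048 between complexes of the same mouse and -0.0093 between mice, and 9 of 25 oocytes correlated best with their own cumulus cells.

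The libraries and gene lists were chosen with earlier results of these data known. The genes named are the 10 largest differences in each direction among called genes with a symbol and at least 100 CPM, all markers of both cells, up to 5 called members of each list with the highest levels and up to 2 in the other direction, and known ligand or receptor partners. The 3 largest interactions in each direction are also named, among called genes with at least 20 CPM in a cell type under CR. Some genes that this rule names are not reported here. Set tests were not run.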

Additional observations from a re-analysis of the deposited data

Results flagged for a closer look

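For the 17 genes below, the log2 difference between oocytes and cumulus cells under CR differed from that in 9-month mice fed ad libitum by the test of the interaction (edgeR, adjusted p under 0.05 and at least 2-fold). Values are CR minus ad libitum, so a positive value is a shift towards the oocyte under CR.

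Shifts were ranked among called genes with a mean of at least 20 CPM in a cell type under CR, without Gm and Rik symbols. Genes at that level only ad libitum were not ranked. The largest shifts towards the oocyte were those of Trim6 (4.07), Lrrtm3 (3.99) and Slco5a1 (3.76). The Slco5a1 levels in oocytes were 31.9 to 135 CPM (median 57.5) under CR and 19.6 to 72.6 CPM (median 34.2) ad libitum, and its cumulus libraries held 0 to 0.802 CPM (median 0) and 0 to 4.03 CPM (median 0). The largest shifts towards the cumulus cells were those of Arhgef16 (-2.97), Sp110 (-2.84) and Srgap3 (-2.75). Arhgef16 and Sp110 had medians of 1.18 and 0 CPM in CR cumulus cells and of 0 CPM in ad libitum cumulus cells, and Slco5a1 had a median of 0 CPM in cumulus cells of both feedings, so these 3 values rest on counts close to the floor of cumulus libraries of unequal depth, and with thinned libraries Arhgef16 had an adjusted p of 0.055. Srgap3 was at 1.01 to 122 CPM (median 18.5) in CR and 0 to 23.8 CPM (median 6.77) in ad libitum cumulus cells.

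Among cumulus genes and genes of the exchange between the cells, Foxl2 (-1.64) and Notch1 (-2.20) shifted towards the cumulus cells, and Ptgs2 (2.52) and Esr1 (1.04) towards the oocyte. Notch1 was at 0 to 19.1 CPM (median 6.37) in CR and 0 to 4.92 CPM (median 1.8) in ad libitum cumulus cells and at 3 to 17 CPM (median 9.77) and 5.18 to 19.9 CPM (median 13.6) in oocytes. Ptgs2 was at 7.6 to 26.9 CPM (median 14) in CR oocytes and 0.576 to 11.8 CPM (median 3.07) in ad libitum oocytes. Its cumulus libraries held 0 to 7.29 CPM (median 0) under CR and 0 to 4.09 CPM (median 0.738) ad libitum. Foxl2 was at 0 to 7.89 CPM (median 0.721) in CR oocytes and 0 to 21.4 CPM (median 1.59) in ad libitum oocytes. The lower cell type of both genes was thus close to the floor. Foxl2 is also a cumulus marker, and the part of cumulus RNA in its shift was not tested. Of the immediate early genes, Egr1 (-2.20) and Btg2 (-1.69) shifted towards the cumulus cells.

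Of the mitochondrially encoded genes, mt-Co1 (1.27), mt-Nd1 (1.75), mt-Nd4 (1.13), mt-Nd5 (1.48) and mt-Co2 (1.85) shifted towards the oocyte. mt-Nd5 was at 246 to 1203 CPM (median 396) in CR oocytes and 89.3 to 364 CPM (median 149) in ad libitum oocytes.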

How the results depend on the processing

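For the difference between oocytes and cumulus cells, no gene called in both fits changed direction under any of the 14 alternatives. Of all genes called in the reported fit and tested again, 9 changed sign without CR3, 1 without CR2 and 1 without the replicate block, and 0 under the other 11 alternatives. The number of called genes was 16530 with DESeq2, which gave no adjusted p for 2895 genes, and 9776 of 13818 genes tested with filterByExpr (5073 higher in oocytes and 4703 in cumulus cells), since that filter tests fewer genes. Without each mouse in turn it was 18508 to 21443 (9529 to 10498 higher in oocytes and 8979 to 10945 in cumulus cells), 18508 being the value without CR3. Without the replicate block, 22454 genes were called over all 27 oocyte and 25 cumulus libraries. That fit also took in the 2 oocytes without a cumulus library, so its 1 change of sign is not that of the pairing alone. Plain library totals lowered the share of called genes that were higher in oocytes from 48.7% to 39.4%.

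For the genes named in the text, 2112 of 2163 values stayed on the same side of the threshold. Bmpr1a turned to -0.0613 with DESeq2, -0.0607 with RLE size factors, -0.50 with plain totals, -0.12 with filterByExpr and -0.018 without the 3 complexes that stood apart, and ranged from -0.024 (without CR2) to 0.32 (without CR3) without each mouse in turn. Egfr turned to 0.046 with counts summed per mouse. The other losses included genes close to 2-fold. Without CR3, Kitl (-0.97), Bmpr2 (-0.89), Fgfr1 (0.74), Fgfr2 (0.96), Hsd17b7 (0.91) and Ddx6 (-0.74) fell under 2-fold, and Bmpr1b (0.98) did without CR2. Sod1 (0.94) and Bub1 (0.94) fell under 2-fold without the 3 complexes that stood apart, and Tgfbr1 (-1.25) passed 2-fold with plain totals.

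The comparison of feedings depended more on the processing. Against 935 genes (343 towards the oocyte and 592 towards the cumulus cells), the fit without the replicate block, which ignores the pairing, called 1378, of which 903 were towards the cumulus cells, and counts summed per mouse called 350, of which 77 were. Without each mouse in turn it called 626 to 963 genes, with 214 to 408 towards the oocyte and 412 to 648 towards the cumulus cells. The lowest value towards the oocyte came without Middle2. Of 204 values for the 17 genes named, 27 were no longer called, most often for Foxl2, Sp110, Ptgs2 and Esr1. The cause was not tested. With 3 CR and 4 ad libitum mice, the values describe these mice.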
